A study of Homo sapiens with 9 samples.

Results

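RNA-seq gene counts were examined for 27 genes of cholesterol and fatty acid synthesis, with the transcription factors and membrane proteins that control them. The members are a list of symbols, matched through GENCODE release 29 to 27 of the 58233 gene identifiers counted. The cells were UPCI-SCC-040, an established line from a squamous carcinoma of the tongue, in 3 groups of 3 libraries. Cells of the first group received TGF-β1, a transforming growth factor that acts through SMAD transcription factors, at 5 ng/ml for 72 h. Cells of the second received the same dose for 48 h, and controls received none. Passages 12, 13 and 8 of the line gave 1 library to every group, and values are listed in that passage order (replicates 1, 2 and 3). Treated cells were in medium without serum, penicillin or streptomycin, whereas the growth medium held all of these. Whether controls also lacked serum is not stated, so in any comparison with control the cytokine, the loss of serum and the hours in culture cannot be told apart. Nothing but the passage marks replicates as separate cultures, and p-values measure the spread between these libraries alone.

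Cells build cholesterol from acetyl-CoA through mevalonate, farnesyl diphosphate, squalene and lanosterol. Fatty acid synthesis draws on the same acetyl-CoA, and desaturation makes the monounsaturated chains of membranes and stored lipid. Most of these genes are targets of the sterol regulatory element binding proteins (SREBPs), membrane-bound factors encoded by SREBF1 and SREBF2. When sterols are low, SREBPs leave the endoplasmic reticulum, are cut in the Golgi and enter the nucleus, and INSIG proteins hold them back when sterols are plentiful. Their promoters are bound together with NF-Y, which recognises the CCAAT box, and Sp1, which recognises a GC box. Serum lipoproteins are an outside source of cholesterol for cultured cells.

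The promoters of 6 genes show how these letters are arranged, namely the steepest sterol enzyme, the desaturase, both ends of the SREBP loop, and a pair of genes whose change was small or downward. Each sequence is the 250 bases before the RefSeq start (GRCh38.p14), 5′ to 3′ on the strand of the gene. Capitals mark CCAAT or its reverse complement ATTGG, the sterol regulatory element TCACCCCAC and the E-box CACGTG.
MSMO1 (chr4:165327419-165327668, plus strand): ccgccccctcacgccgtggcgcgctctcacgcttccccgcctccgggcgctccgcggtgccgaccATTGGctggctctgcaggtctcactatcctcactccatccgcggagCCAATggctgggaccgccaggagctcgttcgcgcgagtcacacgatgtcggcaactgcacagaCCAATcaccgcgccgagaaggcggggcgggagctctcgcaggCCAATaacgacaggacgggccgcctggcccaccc
SCD (chr10:100346983-100347232, plus strand): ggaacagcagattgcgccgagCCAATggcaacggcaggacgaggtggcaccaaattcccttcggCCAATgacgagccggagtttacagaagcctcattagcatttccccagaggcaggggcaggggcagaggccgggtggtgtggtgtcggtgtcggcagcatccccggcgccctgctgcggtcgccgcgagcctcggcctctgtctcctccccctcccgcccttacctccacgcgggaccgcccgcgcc
INSIG1 (chr7:155297628-155297877, plus strand): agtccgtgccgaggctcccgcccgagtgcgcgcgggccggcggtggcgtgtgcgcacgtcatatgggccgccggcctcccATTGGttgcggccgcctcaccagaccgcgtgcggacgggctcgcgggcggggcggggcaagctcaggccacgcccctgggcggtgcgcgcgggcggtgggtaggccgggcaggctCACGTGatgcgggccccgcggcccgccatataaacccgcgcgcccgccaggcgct
SREBF2 (chr22:41832855-41833104, plus strand): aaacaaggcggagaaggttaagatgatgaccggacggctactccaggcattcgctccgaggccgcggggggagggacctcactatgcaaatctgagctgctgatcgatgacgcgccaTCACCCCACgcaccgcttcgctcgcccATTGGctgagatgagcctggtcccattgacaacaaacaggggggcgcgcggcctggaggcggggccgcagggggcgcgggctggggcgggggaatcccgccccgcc
PMVK (chr1:154936720-154936969, minus strand): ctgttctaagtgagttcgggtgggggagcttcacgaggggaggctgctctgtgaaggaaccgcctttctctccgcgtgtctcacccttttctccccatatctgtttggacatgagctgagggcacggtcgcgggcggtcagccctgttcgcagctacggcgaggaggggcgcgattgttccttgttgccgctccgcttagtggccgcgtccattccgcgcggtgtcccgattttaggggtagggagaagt
ELOVL6 (chr4:110198616-110198865, minus strand): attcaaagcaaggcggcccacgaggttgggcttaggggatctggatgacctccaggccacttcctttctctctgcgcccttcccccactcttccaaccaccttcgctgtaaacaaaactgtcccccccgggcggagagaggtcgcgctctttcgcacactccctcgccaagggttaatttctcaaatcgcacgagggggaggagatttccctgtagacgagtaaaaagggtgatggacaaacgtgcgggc
MSMO1 carried 4 CCAAT boxes and SCD 2, and PMVK and ELOVL6 carried none. The 6 genes were picked by role and by change, so these counts do not show whether the box goes with the change. SREBF2 held the sterol regulatory element, starting at position -133 from its own transcription start, beside 1 CCAAT box. INSIG1 held an E-box at -55 and 1 CCAAT box at -170.

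RefSeq windows of 300 bases, 250 before to 50 after a start, were matched for 24 of the 27 genes, counting a gene as holding a motif when any of its windows did, on either strand. FDFT1, SQLE and FASN had no matched window. CCAAT was present in 20 of the 24, or 83.3%, against 42.9% of 10492 genes tested for expression that had a window. A second CCAAT was present in 14, or 58.3%, against 16.1%. PMVK, CYP51A1, SREBF1 and ELOVL6 had none in this window. Of these, CYP51A1 and SREBF1 were nevertheless called higher at both times, while TM7SF2, which held a CCAAT, was called at neither. Whether the box goes with the size of the change was not tested. TCACCCCAC was found in SREBF2 alone, 4.17% of the 24, against 0.543%, and a CACGTG in LSS, SC5D and INSIG1, 12.5% against 12.3%. A sterol element that differs from TCACCCCAC in any letter is not counted in these shares. The GC box GGGCGG was present in 23 of the 24, or 95.8%, against 76.3%, with NSDHL lacking it. A second GGGCGG was present in 14, or 58.3%, near the 52.6% of those tested genes. None of these 4 strings is contained in another, and a match describes the sequence without showing that a factor binds.

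Library totals ran from 12544690 to 20438727 counts, and all 27 genes passed the filter on low counts among 15440 genes tested. All 10 keratinocyte and squamous markers, such as KRT5, TP63 and CDH1, were at 1 CPM (counts scaled to library size, with TMM factors) or more in every library. Of 6 fibroblast markers 5 stayed under 1 CPM everywhere, and their summed level was 1.99 to 22.4 CPM at 72 h, 0.858 to 18.2 CPM at 48 h and 0.241 to 1.0 CPM in controls. COL1A2 was the member above 1 CPM. All 6 leukocyte markers were under 1 CPM, as were 4 of 5 endothelial, 4 of 6 adipocyte and 5 of 6 hepatocyte markers, with TYROBP, LEP and APOA2 at 0 in all 9 libraries. The 72 h library of passage 8 stood apart from the others, with 1.54% of counts from the nuclear RNA MALAT1 against 0.247% to 0.507% in the other libraries, and 1.0% from ribosomal protein genes against 1.53% to 2.76%. The part of that library's composition in the results below was not tested, and members whose value moves by over 1.5 times without it are given with and without it. The median log2 fold change of the 27 at 72 h was 1.41 without it and 1.81 with it.

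The pathway as a whole was higher after treatment. At 72 h 23 of the 27 genes were called higher and 0 lower against control, where 39.8% of all genes tested were called in either direction with 20.4% higher and 19.4% lower (edgeR quasi-likelihood test, Benjamini-Hochberg adjusted p under 0.05). At 48 h 24 were higher and 1 lower, where 31.0% of all genes were called, 14.9% higher and 16.0% lower. The median log2 fold change of the 27 was 1.81 at 72 h and 1.83 at 48 h, whereas that of all genes tested was 0.03 at 72 h and 0.00 at 48 h. In 23 genes all 72 h libraries lay above all controls, and in 24 all 48 h libraries did. The share of all genes with that separation was 27.3% at 72 h and 25.6% at 48 h. At each time 22 of the genes called rose by 2-fold or more. Both comparisons share the same controls.

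**Figure D1:**
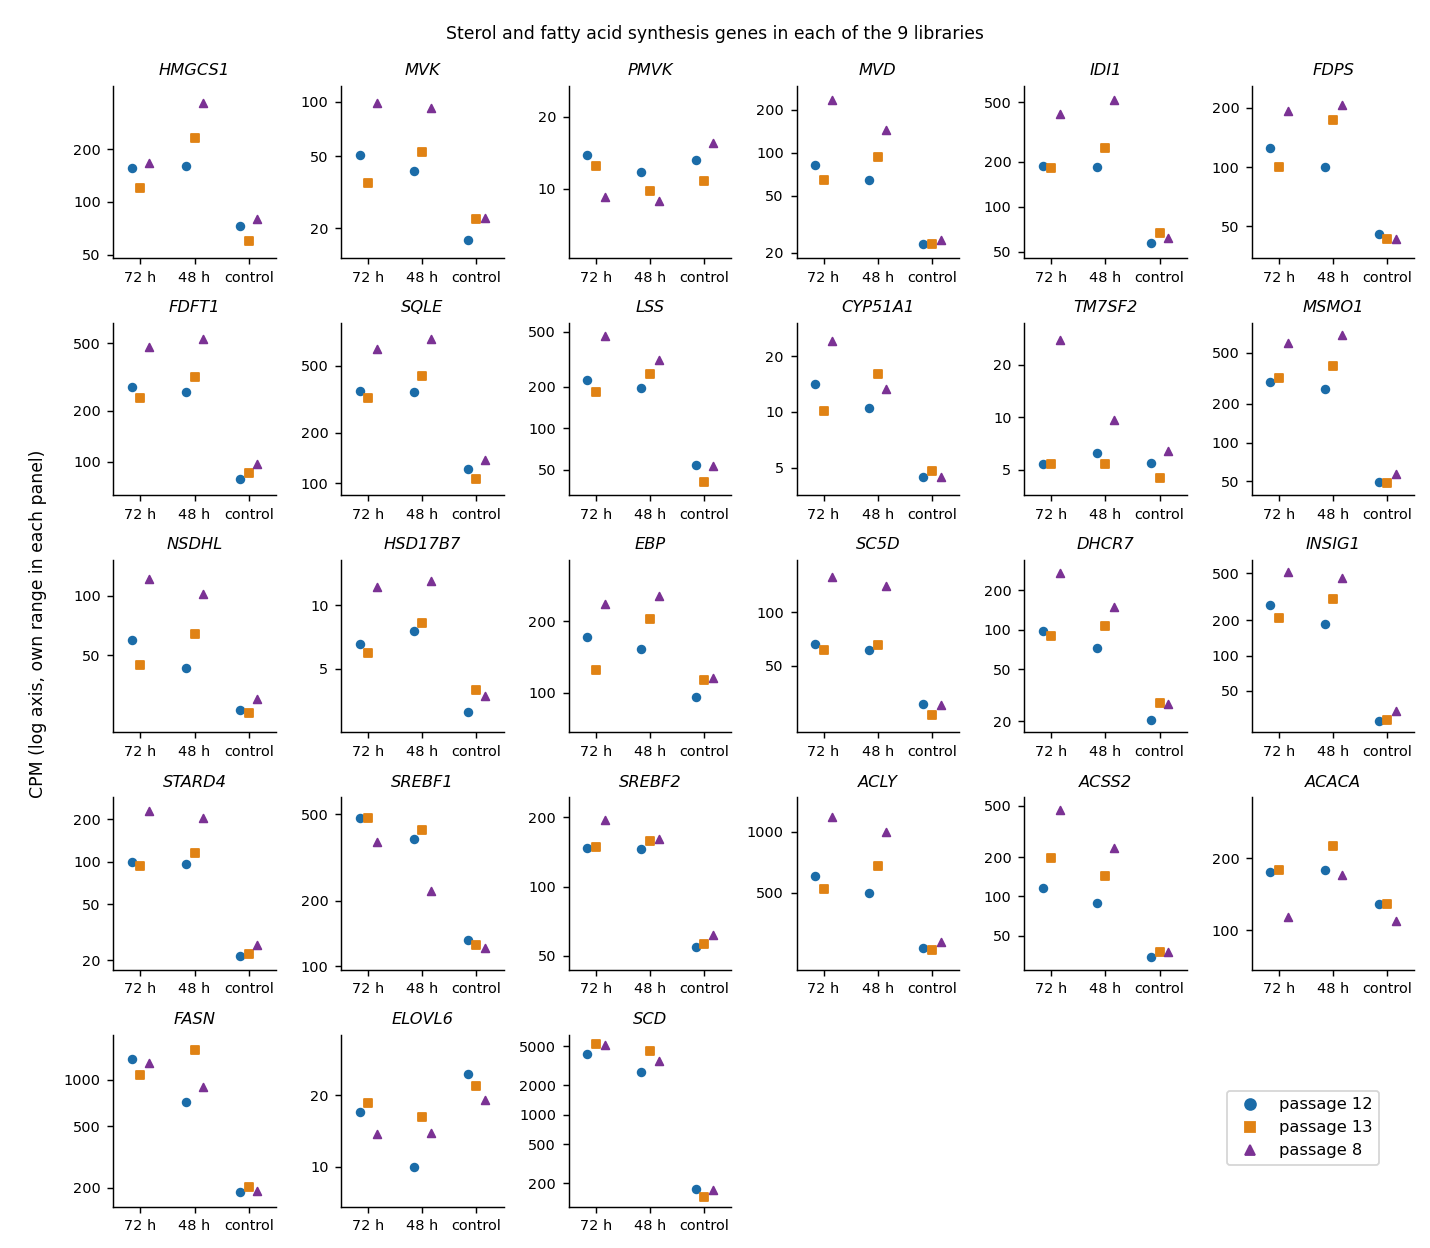
Expression of each of the 27 genes in each of the 9 libraries, in CPM on a log axis with its own range in each panel. Columns are 72 h, 48 h and control, and symbols are the passages. Control libraries lie together at the bottom of most panels, PMVK and ELOVL6 do not follow that pattern, and the triangles of passage 8 are the highest treated libraries for many sterol genes.

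Together the 27 genes made up 0.935%, 0.991% and 1.35% of all counts at 72 h and 0.691%, 1.04% and 1.09% at 48 h, against 0.182%, 0.182% and 0.196% in controls. Summed, they held 9571.5 to 13668.6 CPM at 72 h and 7041.9 to 11178 CPM at 48 h, against 1742.3 to 1864.6 CPM in controls. The treated libraries did not overlap controls, which lay within a narrow band. SCD alone held 37.9% to 52.2% of that sum at 72 h and 31.8% to 41.4% at 48 h, against 8.2% to 9.71% in controls.

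**Figure D2:**
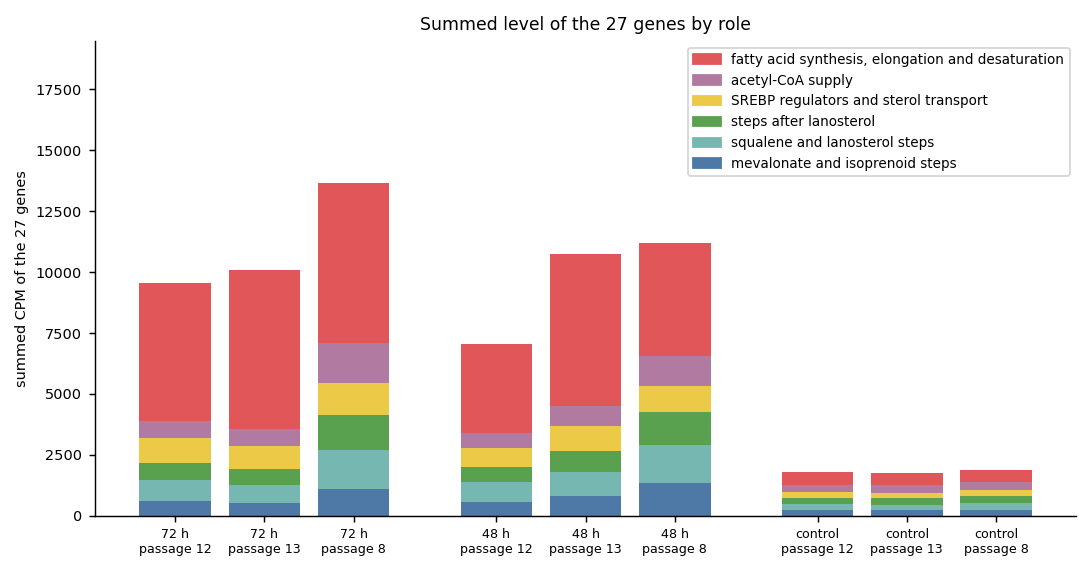
Summed CPM of the 27 genes in each library, stacked by role, with 72 h on the left, 48 h in the middle and controls on the right. Each bar is 1 library, and the red block, which holds SCD, FASN, ACACA and ELOVL6, is the tallest in every library, controls included.

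The early, mevalonate part of the pathway rose except at 1 step. HMGCS1 makes HMG-CoA, the substrate of the rate-limiting reductase. It measured 157, 120 and 166 CPM at 72 h and 160, 232 and 368 CPM at 48 h, against 72.9, 60.0 and 80.4 CPM in controls. Every treated library lay above every control, and the log2 fold change was 1.05 ± 0.28 (SE) at 72 h (adjusted p = 0.0145, edgeR) and 1.83 ± 0.28 at 48 h (adjusted p = 0.00226). MVK, which phosphorylates mevalonate, rose by 1.56 ± 0.41 at 72 h and 1.58 ± 0.41 at 48 h on the log2 scale. MVD, which decarboxylates it after a second phosphorylation, rose by 2.44 ± 0.50 at 72 h and 2.09 ± 0.50 at 48 h. Without the passage 8 library the 72 h value of MVD was 1.65 (adjusted p = 0.00241, edgeR). IDI1 interconverts the isoprene units, and FDPS joins them into farnesyl diphosphate. They rose 4.24-fold (IDI1) and 3.15-fold (FDPS) at 72 h, and 5.12-fold (IDI1) and 3.63-fold (FDPS) at 48 h.

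PMVK, the phosphomevalonate kinase between MVK and MVD, did not pass the test at either time. Its levels were 13.8, 12.4 and 9.21 CPM at 72 h and 11.8, 9.8 and 8.88 CPM at 48 h, against 13.2, 10.8 and 15.6 CPM in controls. The groups overlapped at both times. Its log2 fold change was -0.16 ± 0.21 at 72 h (adjusted p = 0.562, edgeR) and -0.37 ± 0.21 at 48 h (adjusted p = 0.202), where its neighbours MVK and MVD had positive values past the threshold. The difference between PMVK and its neighbours was not tested.

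The 3 enzymes that commit farnesyl diphosphate to sterols all rose. FDFT1 (chromosome 8) makes squalene, and its log2 fold change was 1.91 ± 0.32 at 72 h and 2.07 ± 0.32 at 48 h. SQLE (chromosome 8), the squalene epoxidase, had 352, 323 and 633 CPM at 72 h and 350, 433 and 721 CPM at 48 h, against 121, 106 and 137 CPM in controls. The groups were apart, with passage 8 highest at each time. LSS closes the ring to lanosterol. It measured 223, 183 and 462 CPM at 72 h and 196, 248 and 312 CPM at 48 h, against 54.2, 41.0 and 53.5 CPM in controls, a log2 fold change of 2.55 ± 0.35 at 72 h (adjusted p = 0.00101, edgeR) and 2.35 ± 0.35 at 48 h (adjusted p = 0.00208).

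Of the 8 genes that convert lanosterol onward, 7 rose at each time. MSMO1, a C4 methyl oxidase, changed most among the sterol enzymes. It measured 296, 318 and 595 CPM at 72 h and 261, 390 and 679 CPM at 48 h, against 49.2, 48.8 and 57.4 CPM in controls. Its lowest treated library was far above its highest control, and the fold was 7.78 at 72 h (adjusted p = 0.000892, edgeR) and 8.56 at 48 h (adjusted p = 0.0012). DHCR7, the reductase of the final step from 7-dehydrocholesterol, measured 97.0, 89.7 and 272 CPM at 72 h and 72.5, 107 and 150 CPM at 48 h, against 20.5, 27.5 and 26.9 CPM in controls. Again no libraries of the groups overlapped, and the fold was 6.12 (log2 2.61) at 72 h and 4.39 (log2 2.13) at 48 h. Without the passage 8 library the 72 h log2 fold change of DHCR7 was 1.91 (adjusted p = 0.000969, edgeR). NSDHL removes the C4 carboxyl group with HSD17B7 reducing the remaining ketone, SC5D introduces the C5 double bond and EBP shifts the C8 one. Their folds ran from 1.64 (EBP) to 3.27 (SC5D) at 72 h and from 1.89 (EBP) to 3.08 (SC5D) at 48 h.

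CYP51A1, the lanosterol demethylase, rose 3.53-fold at 72 h and 2.91-fold at 48 h. Its value is uncertain, because 83.2% of its exon bases overlap exons of other annotated genes, 1 of them antisense, and the strand setting of the counting is not given. It had 14.1, 10.1 and 24.2 CPM at 72 h and 10.5, 16.1 and 13.3 CPM at 48 h, against 4.46, 4.78 and 4.44 CPM in controls. TM7SF2, a sterol C14 reductase, did not pass the test. It had 5.36, 5.36 and 27.9 CPM at 72 h and 6.23, 5.39 and 9.7 CPM at 48 h, against 5.49, 4.46 and 6.38 CPM in controls. A single library, passage 8 at 72 h, set its log2 fold change of 1.24 ± 0.62 (adjusted p = 0.143, edgeR), which was -0.01 without that library (adjusted p = 0.975).

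Regulators of the pathway rose with its enzymes. INSIG1 retains the SREBP complex in the endoplasmic reticulum and is itself an SREBP target. It measured 269, 208 and 518 CPM at 72 h and 187, 301 and 458 CPM at 48 h, against 27.8, 28.4 and 33.8 CPM in controls. That is 11.1-fold at 72 h (adjusted p = 0.000724, edgeR) and 10.5-fold at 48 h (adjusted p = 0.00119), with no overlap between treated and control libraries. STARD4, which carries cholesterol between membranes, rose 6.06-fold at 72 h and 5.99-fold at 48 h.

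SREBF2, the factor that mainly drives sterol genes, had the smallest error of the 27. It measured 147, 148 and 195 CPM at 72 h and 146, 158 and 160 CPM at 48 h, against 54.5, 56.5 and 61.4 CPM in controls. Its log2 fold change was 1.51 ± 0.14 at 72 h (adjusted p = 0.000223, edgeR) and 1.43 ± 0.14 at 48 h (adjusted p = 0.000485). The SREBF2 promoter, shown above, was the sole one of the 24 with an exact TCACCCCAC. SREBF1, whose products mainly drive fatty acid genes, measured 478, 478 and 372 CPM at 72 h and 386, 424 and 223 CPM at 48 h, against 132, 126 and 121 CPM in controls. Here passage 8 was the lowest treated library at each time, the reverse of SREBF2. The log2 fold change of SREBF1 was 1.81 ± 0.23 at 72 h and 1.45 ± 0.23 at 48 h.

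Both suppliers of cytosolic acetyl-CoA rose. ACLY, which splits citrate, rose 2.82-fold at 72 h and 2.66-fold at 48 h, and ACSS2, which activates acetate, 7.12-fold at 72 h and 4.32-fold at 48 h. ACSS2 measured 116, 197 and 462 CPM at 72 h and 89.3, 144 and 237 CPM at 48 h, against 34.2, 37.6 and 37.0 CPM in controls. The treated libraries spread widely and yet all lay above the controls. Its log2 fold change at 72 h was 2.83, and 2.12 without the passage 8 library (adjusted p = 0.00369, edgeR), beside 2.11 at 48 h.

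Fatty acid genes moved unequally. SCD (chromosome 10, 100347124 to 100364834, plus strand), the delta-9 desaturase that makes oleate and palmitoleate, had the largest fold of the 27. It measured 4130.3, 5273 and 5176.1 CPM at 72 h and 2749.7, 4449.4 and 3552.5 CPM at 48 h, against 172, 143 and 171 CPM in controls. These are 30.0-fold at 72 h (log2 fold change 4.91 ± 0.25, adjusted p = 3.89e-05, edgeR) and 22.1-fold at 48 h (4.47 ± 0.25, adjusted p = 4.19e-05). FASN, the synthase that makes palmitate, had 1354.3, 1066.5 and 1282.9 CPM at 72 h and 718, 1563.1 and 901 CPM at 48 h, against 189, 204 and 190 CPM in controls. Treated and control libraries were again apart, and the fold was 6.34 at 72 h and 5.45 at 48 h.

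ACACA, the carboxylase that makes malonyl-CoA for FASN, measured 175, 178 and 114 CPM at 72 h and 179, 226 and 171 CPM at 48 h, against 129, 129 and 109 CPM in controls. It rose at 48 h (log2 fold change 0.65 ± 0.19, adjusted p = 0.0272, edgeR) and did not pass the test at 72 h (0.34 ± 0.19, adjusted p = 0.169), where passage 8 lay within the controls. Without that 72 h library its log2 fold change was 0.53 (adjusted p = 0.0182). ELOVL6, which elongates palmitate to stearate, was the 1 gene called lower. It had 17.1, 18.5 and 13.7 CPM at 72 h and 10.0, 16.2 and 13.9 CPM at 48 h, against 24.5, 21.9 and 19.1 CPM in controls. All treated libraries lay below all controls at both times, a separation that 27.7% of all genes showed at 72 h and 28.1% at 48 h. The log2 fold change was -0.41 ± 0.20 at 72 h (adjusted p = 0.126) and -0.71 ± 0.20 at 48 h (adjusted p = 0.0241).

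**Figure D3:**
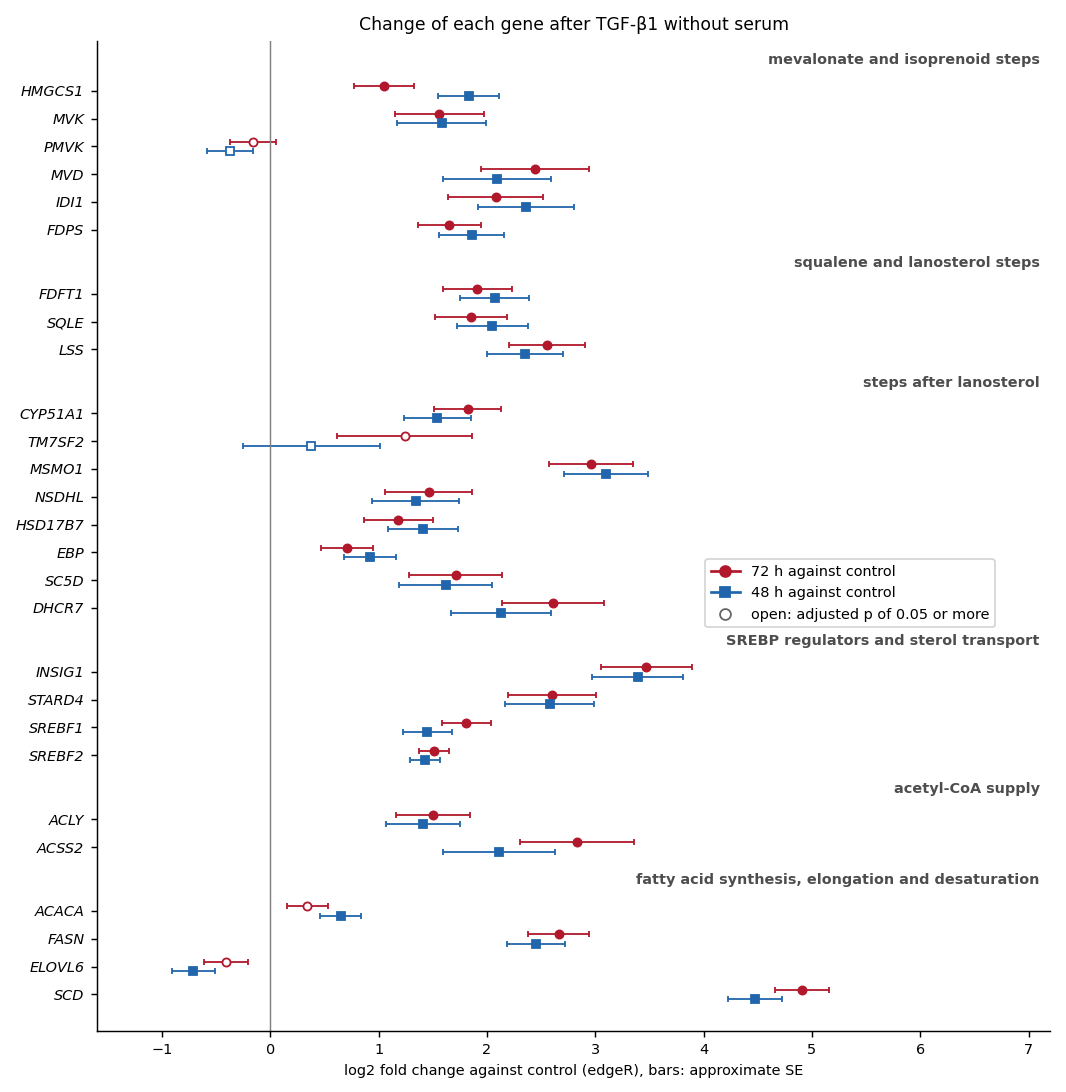
Log2 fold change of each gene against control (x axis) by role, with approximate SE bars, circles for 72 h above squares for 48 h. Filled symbols passed an adjusted p of 0.05. SCD lies farthest right, at 4.91 and 4.47, and PMVK and ELOVL6 lie left of 0.

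Some calls were lost when a single library was left out. At 48 h leaving out any 1 of the control libraries ended the calls of MVK, MVD, NSDHL, EBP, SC5D and ACSS2, with adjusted p between 0.0517 and 0.108 over all their losses (edgeR). MVK, NSDHL, EBP and SC5D were also lost without the 48 h library of passage 8, and NSDHL without that of passage 13. ACLY was lost without the passage 13 control (adjusted p = 0.0521). ACACA was lost without any control or without the 48 h library of passage 12 or 13 (0.0594 to 0.106), and ELOVL6 without the control of passage 12 or 13 or the 48 h library of passage 12 or 8 (0.0546 to 0.0895). At 72 h HMGCS1 and SC5D were lost without the passage 13 control (HMGCS1 0.0616, SC5D 0.0568), and HSD17B7 without that of passage 12 (0.0643). MVK was lost without the passage 12 or 13 control (0.051 to 0.0632), NSDHL without any 1 control (0.053 to 0.0716), and EBP without any 1 control, the 72 h library of passage 12 or 8, or the 48 h library of passage 13 (0.0559 to 0.133). None of these genes changed direction. The other members called, 16 at 48 h and 17 at 72 h, were called under all alternatives other than omission of a whole passage, among them FDPS, FDFT1, SQLE, LSS, MSMO1, INSIG1, STARD4, SREBF1, SREBF2, FASN and SCD at both times.

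Between 72 h and 48 h no gene differed past the threshold, 0 of the 27 and 0 of all genes (edgeR, 0% called). At an unadjusted p under 0.05 HMGCS1 was the single member, against 8.95% of all genes, and DESeq2 called 47 genes overall but no member. The edgeR fit with no filter on low counts did call HMGCS1, with values given in the last section. With the filter HMGCS1 was lower at 72 h than at 48 h by a log2 value of -0.78 ± 0.27 (adjusted p = 0.521, edgeR). In 0 of the 27 did all 72 h libraries lie above all 48 h libraries, as in 7.07% of all genes, and in 0 below, as in 5.17%. The other members lay between -0.30 and 0.86, and the median of the 27 was 0.08. A p that misses the threshold does not show equal levels.

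Treated libraries of passage 8 stood apart from those of passages 12 and 13 in much of the sterol pathway. In 19 of the 27 genes both treated passage 8 libraries lay above all 4 of passages 12 and 13, a separation shown by 15.2% of all genes, and in PMVK, SREBF1 and ACACA they lay below, as in 13.0% of all genes. The 5 others overlapped, namely HMGCS1, CYP51A1, FASN, ELOVL6 and SCD. The 19 included FDFT1, SQLE and LSS and 7 of the 8 genes after lanosterol. Over the 27 the median ratio of passage 8 to the other passages was 1.84 in treated libraries and 1.11 in controls, against 1.0 in treated and 0.995 in control libraries over all genes tested.

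This spread can be read in single genes. SC5D had 141 and 157 CPM in treated passage 8 against 61.3 to 66.2 CPM in the treated libraries of the other passages, whereas the controls measured 30.2 CPM in passage 8 and 26.4 to 30.4 CPM in the others. IDI1 had 415 and 516 CPM in treated passage 8 against 183 to 248 CPM, with 62.1 CPM in its control and 56.9 to 66.3 CPM in the other controls. In both genes the controls overlapped and the treated libraries did not. SCD did not share this pattern, at 3552.5 to 5176.1 CPM in treated passage 8 and 2749.7 to 5273 CPM in the others. No test of passage was made, since each passage gives 1 library per group and the passages cannot be told apart from single cultures.

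Within each passage the direction held for all but PMVK and TM7SF2. The ratio of treated to control was above 1 in all 6 within-passage pairs for 24 of the genes, and below 1 in all 6 for ELOVL6. It was above 1 in 2 pairs and below in 4 for PMVK, and above in 5 and below in 1 for TM7SF2. In 0 of the 27 was the response at both times of opposite sign in passage 8 and in both other passages, as it was in 3.94% of all genes. At 72 h alone PMVK showed such a split, with a log2 ratio of -0.73 in passage 8, 0.06 in passage 12 and 0.19 in passage 13. The median log2 ratio of the 27 was 2.21 in passage 8, 1.38 in passage 13 and 1.54 in passage 12 at 72 h. At 48 h it was 2.21 in passage 8, 1.87 in passage 13 and 1.37 in passage 12. The all-gene median lay between -0.03 and 0.04 in these pairs. Leaving out all 3 libraries of passage 8, 22 members were called higher at 72 h and 24 at 48 h. Leaving out passage 12, the counts were 17 at 72 h and 13 at 48 h, and leaving out passage 13, 18 at 72 h and 13 at 48 h. The 48 h calls lost in this way and not by omission of a single library were those of CYP51A1 and SREBF1 (without passage 12), IDI1 (without passage 13), and HSD17B7 and DHCR7 (without either).

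**Figure D4:**
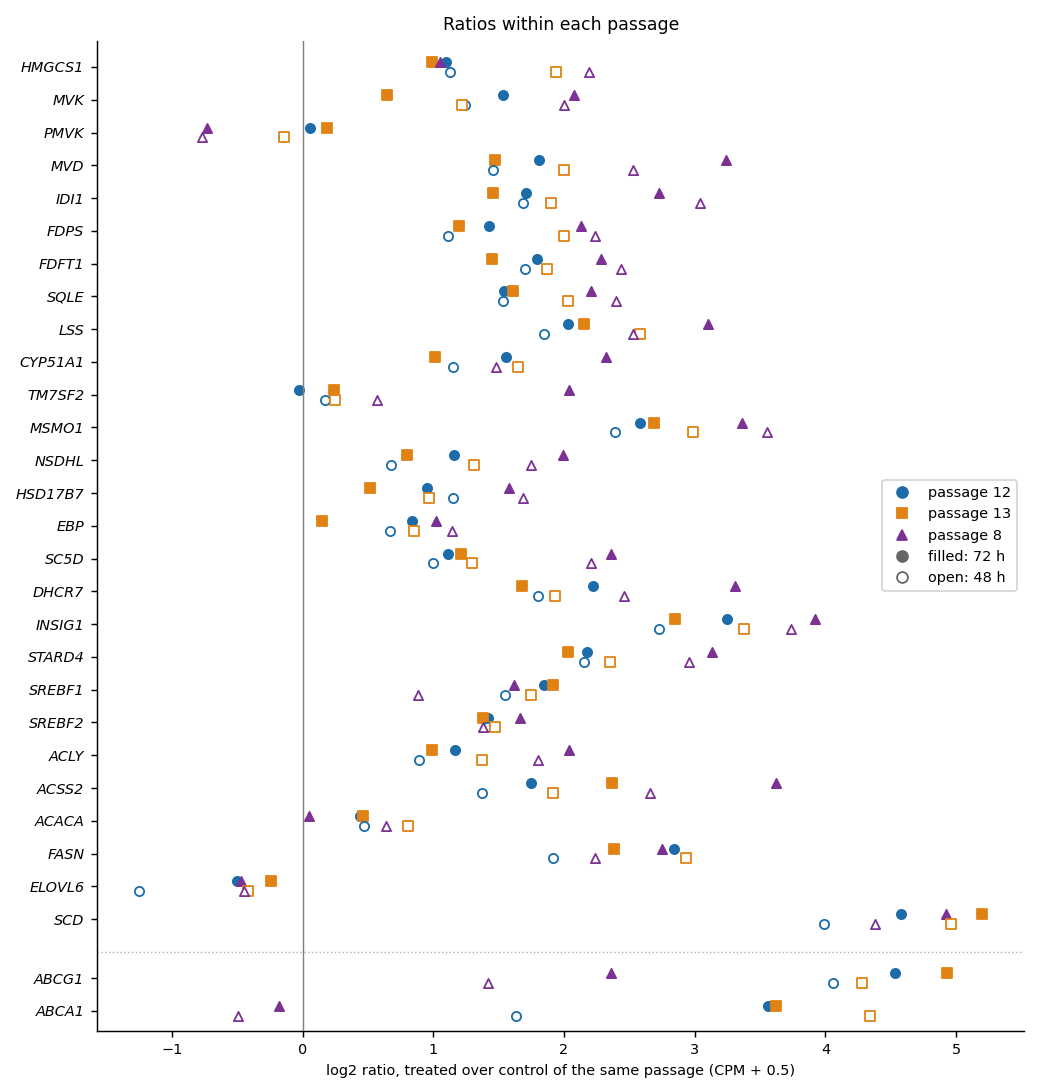
Log2 ratio of each treated library to the control of its own passage (x axis), for the 27 genes and, below the dotted line, ABCG1 and ABCA1. Filled symbols are 72 h and open symbols 48 h. The triangles of passage 8 lie to the right for most sterol genes and to the left for ABCG1 and ABCA1.

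Levels per length (TPM, from exon lengths in GENCODE) put the genes in another order than counts. In controls ACLY had the highest mean level at 186 TPM, followed by EBP at 160, SCD at 108, SQLE at 100.0 and FASN at 74.2 TPM, with HSD17B7 last at 2.7. After treatment SCD was first, at 3452.4 ± 693 TPM at 72 h and 2553.2 ± 577 TPM at 48 h (SD, 3 libraries each), and its libraries lay above those of every other member. ACLY, MSMO1, FASN and SQLE came next at 72 h, between 563 and 387 TPM, and their libraries overlapped from each neighbour to the next.

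Genes around the pathway were counted in 7 related lists, to be read against the shares over all genes tested, 20.4% higher and 19.4% lower at 72 h and 14.9% higher and 16.0% lower at 48 h. Nothing is called particular to these short lists. Of 4 SREBP processing genes 2 were higher at 72 h and 1 at 48 h, with 1 at 72 h without the control of passage 12 or 13. MBTPS1, the site 1 protease that makes the first cut in SREBPs, measured 113, 131 and 126 CPM at 72 h and 112, 103 and 109 CPM at 48 h, against 72.1, 67.9 and 66.6 CPM in controls, a rise of 1.79-fold at 72 h and 1.57-fold at 48 h. Of 11 other sterol and isoprenoid genes 2 were higher and 4 lower at 72 h, and 1 was higher and 4 lower at 48 h. Without any 1 control 1 was lower at 48 h, as without the 48 h library of passage 12, and 2 were without that of passage 8. At 72 h 2 were lower without the passage 13 control, and 1 was higher without any 1 control, the 48 h library of passage 13 or the 72 h library of passage 8. The higher count at 48 h was 2 or 3 without the 48 h library of passage 12 or the 72 h library of passage 13 or 8. PDSS1 and COQ2, which make and attach the side chain of coenzyme Q, and TMEM97, the sigma-2 receptor, were lower. Their log2 fold changes at 72 h and 48 h were -1.70 and -1.41 (PDSS1), -1.15 and -0.96 (COQ2) and -1.02 and -0.91 (TMEM97). Coenzyme Q shares the isoprenoid precursor with cholesterol. In the same list GGPS1 was called higher at both times and ERG28 at 72 h. PDSS2 was called at neither time, with within-passage log2 ratios of -0.17 to 0.13. The 48 h call of PDSS1 was lost without any 1 control or the 48 h library of passage 12 or 8 (adjusted p 0.0542 to 0.074, edgeR). TMEM97 was lost at 72 h without any 1 control (0.0502 to 0.0758), and at 48 h without any 1 control, either library of passage 12 or the 48 h library of passage 13 (0.0519 to 0.134). With upper-quartile factors it was also lost at 48 h (0.0594, edgeR).

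Of 7 tested genes of sterol export and liver X receptor targets, 3 were higher and 0 lower at each time, and without passage 12 or without passage 13 the 48 h count was 0. ABCG1, a sterol exporter, measured 73.5, 72.1 and 15.3 CPM at 72 h and 53.3, 45.6 and 7.74 CPM at 48 h, against 2.71, 1.88 and 2.58 CPM in controls. All treated libraries lay above controls, and the log2 fold change was 4.49 ± 0.86 at 72 h and 3.90 ± 0.84 at 48 h. The 48 h call of ABCG1 was lost with no filter on low counts (adjusted p = 0.0569, edgeR), and its calls at both times without all of passage 12 or all of passage 13 (0.0538 to 0.117). SMPDL3A, a phosphodiesterase, rose 2.40-fold at 72 h and 2.36-fold at 48 h, and NR1H2, liver X receptor beta, 1.88-fold at 72 h and 1.5-fold at 48 h. ABCA1, the other main exporter, is named after its values were seen. It had 487, 408 and 24.2 CPM at 72 h and 128, 675 and 19.4 CPM at 48 h, against 40.9, 32.8 and 27.5 CPM in controls. In passages 12 and 13 it was above control, and in passage 8 below, and it did not pass the test (adjusted p = 0.0842 at 72 h and 0.11 at 48 h, edgeR). Without the passage 8 library at 72 h its adjusted p at 72 h fell below the threshold, as it did without the one at 48 h (0.044 to 0.0497), and without all of passage 8 it was 0.0186 at 72 h and 0.0222 at 48 h. With all libraries it passed under DESeq2 at 48 h (0.0475), and at 72 h under DESeq2 and in the fit of the 2 groups alone (0.03 to 0.0378).

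Of 7 tested genes that release and transfer lysosomal sterol, 4 were higher at 72 h and 2 at 48 h, with 0 lower. Without the passage 12 control 2 were higher at 72 h, and without the 48 h library of passage 13 there was 1 lower at 48 h. NPC1, the membrane protein that exports cholesterol from lysosomes, had 192, 203 and 245 CPM at 72 h and 174, 192 and 173 CPM at 48 h, against 64.3, 82.9 and 69.6 CPM in controls. NPC1 thus rose 2.96-fold at 72 h and 2.49-fold at 48 h, and its soluble partner NPC2 rose 1.64-fold and 1.65-fold. Of 14 tested genes of further fatty acid elongation, desaturation and supply, 4 were higher at 72 h and 3 at 48 h, with 0 lower. Without the 72 h library of passage 8 there was 1 lower at 72 h, and 5 were higher at 48 h. FADS2 and FADS1, the desaturases of polyunsaturated fatty acids, rose 4.49-fold (FADS2) and 2.59-fold (FADS1) at 72 h and 4.02-fold (FADS2) and 2.32-fold (FADS1) at 48 h. SLC25A1, which exports citrate from mitochondria for ACLY, rose 2.54-fold at 72 h and 2.10-fold at 48 h.

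Of 13 tested genes of fatty acid activation and glycerolipid synthesis, 6 were higher and 1 lower at 72 h, and 4 were higher and 2 lower at 48 h. Without any 1 library the higher count ran from 4 to 8 at 72 h and from 3 to 5 at 48 h, and 1 was lower at 48 h without any 1 control or the 48 h library of passage 12. LPIN1, a phosphatidate phosphatase, measured 122, 150 and 219 CPM at 72 h and 76.5, 150 and 146 CPM at 48 h, against 20.5, 31.6 and 25.4 CPM in controls. It rose 6.34-fold at 72 h and 4.80-fold at 48 h. ACSL4, which activates arachidonate, rose 2.47-fold at 72 h and 2.59-fold at 48 h, and LPIN3, a paralog of LPIN1, 2.14-fold and 1.55-fold. Of 21 tested genes of fatty acid oxidation 4 were higher and 6 lower at 72 h, and 2 were higher and 4 lower at 48 h. The lower count at 72 h was 1 to 3 without any 1 control or any 1 of the 72 h libraries, and at 48 h it was 2 without any 1 control or the 48 h library of passage 12 or 8. The higher count at 72 h was 2 without the passage 12 control. PPARA, a nuclear receptor that drives fatty acid oxidation genes in liver, rose 3.11-fold at 72 h and 3.34-fold at 48 h. Enzymes of the oxidation pathway went the other way, with HADH, a hydroxyacyl-CoA dehydrogenase, at 0.451 of control at 72 h and 0.522 at 48 h, and ETFB, a subunit of the electron transfer flavoprotein, at 0.604 at 72 h and 0.62 at 48 h. At 48 h the calls of LPIN3 (adjusted p 0.0731 to 0.122, edgeR) and HADH (0.0556 to 0.106) were lost without any 1 control or 48 h library. ETFB was lost at 48 h without any 1 control or the 48 h library of passage 12 or 8 (0.0701 to 0.124), and at 72 h without the control of passage 13 or 8 or the 72 h library of passage 8 (0.052 to 0.0862). Omission of a whole passage left the calls of NPC1, FADS2, FADS1, LPIN1, ACSL4 and PPARA at both times. The other genes named for size of change in these lists lost their 48 h calls without passage 12, passage 13 or either. PDSS1, TMEM97, ABCG1, SMPDL3A, NPC2, HADH and ETFB lost their 72 h calls in this way too. ETFB was also lost at both times without passage 8.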

How the data were processed

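Total RNA was sequenced from 9 libraries. Per the labels' protocols, RNeasy columns gave the RNA and the NEBNext Ultra RNA kit the libraries. The deposited values are raw counts of reads per gene on hg38, not normalized, per the labels. The submitters' processing notes name STAR 2.5.2a, featureCounts 1.5.0-p1, bcl2fastq 2.17.1.14 and FastQC 0.11.5. Annotation release, strand setting and handling of multiply aligned reads were not given in the sources used here, so genes with overlapping neighbours or pseudogenes (12 and 4 of the 27 members) may share reads. Of 58233 identifiers 57895 were found in GENCODE release 29.

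The 9 libraries entered 1 edgeR model of group (edgeR 4.0.16, R 4.3.3, 6 residual degrees of freedom) after filterByExpr and TMM scaling, with quasi-likelihood F tests (robust) and p-values adjusted by Benjamini-Hochberg over the 15440 genes tested. The threshold was 0.05. Standard errors are approximate, taken as |log2 fold change| divided by the root of F. CPM is computed on TMM-scaled libraries, and within-passage ratios add 0.5 CPM. The procedure was tested on simulated data with few genes changed and no differences between passages. That test therefore does not cover data with many genes changed or with passages that differ. Replicates differed by more than sampling noise (chi-square per degree of freedom 9.95 to 179).

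Members and related lists were chosen with earlier results of these data known. All 27 members are named, and from each related list the 3 that changed most on average, provided both times passed the threshold and the mean was at least 1 CPM. GGPS1, ERG28 and PDSS2 are named outside that rule, as are ABCA1, MID1IP1 and TECR. The labels give same-numbered libraries the same passage, and a fit with the replicate number as a block (pairing, 4 residual degrees of freedom) was an alternative. Deviations from group means correlated between same-numbered libraries (replicates 1, 2 and 3) at 0.04, 0.10 and 0.10 for 72 h and control, 0.11, 0.07 and 0.12 for 48 h and control, and -0.02, 0.47 and 0.47 for 72 h and 48 h. Also tried were DESeq2 1.42.0, edgeR with DESeq2 size factors or upper-quartile factors, no filter or 1 CPM in 3 libraries, the 2 groups compared alone and omission of each library. Omission of all libraries of a passage was added after seeing the data. Promoter windows came from RefSeq (GRCh38.p14).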

Additional observations from a re-analysis of the deposited data

Results flagged for a closer look

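In 3 of 77 tested genes of the related lists, or 3.9%, every passage 8 pair moved one way and every pair of passages 12 and 13 the other. No test of that difference was made, and 3.94% of all genes tested show such a split, so the share in these lists is that of all genes. ABCA1, the sterol exporter, had log2 ratios of treated to same-passage control of -0.18 (72 h) and -0.49 (48 h) in passage 8. In passage 12 they were 3.6 (72 h) and 1.6 (48 h), and in passage 13 they were 3.6 (72 h) and 4.3 (48 h). MID1IP1, an activator of acetyl-CoA carboxylase, was at -0.21 (72 h) and -0.63 (48 h) in passage 8, at 0.37 (72 h) and 0.11 (48 h) in passage 12, and at 0.69 (72 h) and 0.16 (48 h) in passage 13. TECR, the reductase of very long chain fatty acid elongation, was at -0.0013 (72 h) and -0.091 (48 h) in passage 8, at 0.67 (72 h) and 0.27 (48 h) in passage 12, and at 0.017 (72 h) and 0.17 (48 h) in passage 13, several of them close to 0.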

How the results depend on the processing

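With the replicate block, the pairing by passage, 23 members were higher and 0 lower at 72 h and 24 higher and 1 lower at 48 h, as without it, and genes called numbered 6465 at 72 h, 5113 at 48 h and 0 between the times. It changed no call of a member. Without any 1 library the genes called ranged from 4111 to 6184 at 72 h and from 2631 to 6289 at 48 h. Members called ranged from 18 to 23 at 72 h and from 16 to 25 at 48 h, lowest at both times without the passage 13 control, with 0 to 1 lower at 48 h. Without all libraries of passage 12, 13 or 8, members higher numbered 17, 18 and 22 at 72 h and 13, 13 and 24 at 48 h, and genes called 3110, 2602 and 4906 at 72 h and 765, 1375 and 4599 at 48 h. These fits hold fewer libraries. For 72 h against 48 h, DESeq2 called 47 genes and the fit with no filter 211, among them 1 member, HMGCS1, lower at -0.79 (adjusted p = 0.00391). The median of the members between the times was -0.40 without the 72 h library of passage 8, 0.31 without the 48 h one and -0.10 without passage 8. TM7SF2 ranged from -0.40 to 1.23 between the times and from -0.01 to 1.62 at 72 h against control when libraries or a passage were left out, and PMVK at 72 h from -0.32 to 0.13. TM7SF2 reversed to -0.40 between the times and to -0.01 at 72 h against control without the 72 h library of passage 8, and to -0.12 between the times without passage 8, where PMVK at 72 h against control reversed to 0.13. The cause was not tested. With no filter MVD, SC5D and ACSS2 at 48 h and SC5D at 72 h missed the threshold (adjusted p 0.0648 to 0.089, edgeR), which left 22 members higher at 72 h and 21 at 48 h.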
